A study of Mus musculus with 12 samples.

Results

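The clustered protocadherins are cell-surface adhesion proteins of neurons whose genes lie side by side on mouse chromosome 18 in an alpha, a beta and a gamma cluster. Every gene of the hippocampal expression table with a symbol of these clusters was taken, which gave 55 of 27833 genes, 12 of them in the alpha, 22 in the beta and 21 in the gamma cluster. Pcdha4, Pcdha7 and Pcdhgb8 were not analysed here. The 12 libraries came from hippocampus of naturally aged male C57BL/6J (WT) mice aged 20 months, which received normal saline (CON, n = 3), PQQ at 5 mg/kg/day (PQQ-L, n = 5) or PQQ at 10 mg/kg/day (PQQ-H, n = 4) by oral gavage for 14 days. PQQ, pyrroloquinoline quinone, is a redox-active quinone taken as a dietary supplement, and all groups were aged, so no young mouse entered these comparisons. The labels mark the groups only by the letters C, L and H, which were read as these arms of the study. The study assigned 6 mice to each group, and the labels do not tie the libraries to single mice.

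In the alpha and gamma clusters, each gene has a variable exon with its own promoter, which is spliced to constant exons shared by the whole cluster. The beta genes consist of a single exon and have no constant exons. Individual neurons switch on different combinations of these promoters, a choice that depends on CTCF, cohesin and DNA methylation. The proteins bind to identical copies on other membranes, and they are known for the self-avoidance and spacing of dendrites, for neuron survival and for synapse formation. The so-called C-type genes (Pcdhac1, Pcdhac2, Pcdhgc3, Pcdhgc4 and Pcdhgc5) lie at the ends of the alpha and gamma clusters and are less subject to this random choice.

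The values were FPKM, fragments per kilobase of gene relative to the library total, and 29654553 to 38179496 reads per library had been counted on genes. Whole reads could be recovered from the FPKM, and all members together had 11409 to 16221 reads per library. In the GENCODE M21 models of these genes (GRCm38, whereas the submitters' processing notes name mm39), 2860 bases of a typical alpha gene and 2119 bases of a typical gamma gene were shared with the rest of its cluster. The gene length behind the FPKM had a median of 5348 bases for the alpha and 4697 bases for the gamma genes, so it included the shared exons. If no counted read lay on the shared exons, the FPKM over the unshared bases would be 2.15 times as high for a typical alpha gene. For a typical gamma gene it would then be 1.82 times as high. How reads on shared exons were assigned is not given in the sources used here, and members with near-identical coding sequence are uncertain where reads could be split between them. Without a statement on strand, reads of Pcdhga10 cannot be told apart from those of Gm26672, which covers all 2613 of its unshared bases in M21, and which also covers 1381 bases of Pcdhga11, 771 of Pcdhgb7 and 422 of Pcdhga12. Parts of Pcdha6, Pcdha12, Pcdhb12, Pcdhga1, Pcdhga7, Pcdhga8, Pcdhgc3 and Pcdhgc5 overlap other genes as well, as do the exons shared by the gamma genes. The neighbours Pcdhb21 and Pcdhb22 have 455 bases in common in M21.

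Not all libraries had the profile of hippocampus alone. The summed FPKM of 10 markers of striatal neurons was 1325 to 3323 in CON 1, CON 3, PQQ-H 1 and PQQ-H 2 compared with 37.5 to 178.7 in the other 8 libraries, and all 10 markers were highest in these 4 libraries. The 10 hippocampal neuron markers summed to 32.2 to 83.2 FPKM in the same 4 libraries against 134.1 to 383.9 in the others, and 8 of 10 were lowest there. Of the hippocampal markers, Lct was listed at 0 in 1 library, while no striatal marker was at 0. Choroid plexus markers divided the groups instead, with sums of 1774 to 5906 FPKM in CON, 99.6 to 196.8 in PQQ-L and 76.6 to 94.4 in PQQ-H, and markers of the meninges summed to 24.2 to 55.7, 13.7 to 47.0 and 9.32 to 14.0 FPKM in these groups. General neuron markers summed to 1635 to 1749 FPKM in those 4 libraries and to 1947 to 2064 in the other 8, and oligodendrocyte markers to 1749 to 2759 and 951 to 1670. The microglial and endothelial sums were also higher in all 4 than in the other 8. Of single genes, 4 of 8 general neuron markers were lowest there, and 4 of 7 oligodendrocyte, 3 of 5 microglial and 3 of 5 endothelial markers highest. Thalamic neuron markers summed to 122.2, 79.5 and 18.2 FPKM in CON 1, CON 2 and CON 3. Their sums were 13.7 to 37.6 in PQQ-L and 10.9 to 31.0 in PQQ-H. In such bulk tissue, fewer cells of a type and less RNA per cell cannot be told apart, and the part of these cell type differences in the results that follow was not tested.

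The gamma cluster had the highest and the alpha cluster the lowest expression in every library. The summed FPKM was 43.03 to 57.2 (median 50.2) for gamma, 29.1 to 44.9 (median 39.1) for beta and 3.37 to 7.89 (median 6.699) for alpha genes. Of the 55 members, 43 had a mean FPKM of at least 0.5 and were tested, namely all 21 gamma genes, 20 of the 22 beta genes and, from the alpha cluster, Pcdha12 and Pcdhac2. The 12 that did not pass averaged at most 0.388 FPKM. For the alpha genes, the length behind the FPKM included the shared exons, which lowers the FPKM at a given number of reads. The plot of levels along the chromosome shows how uneven the clusters were.

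**Figure D1:**
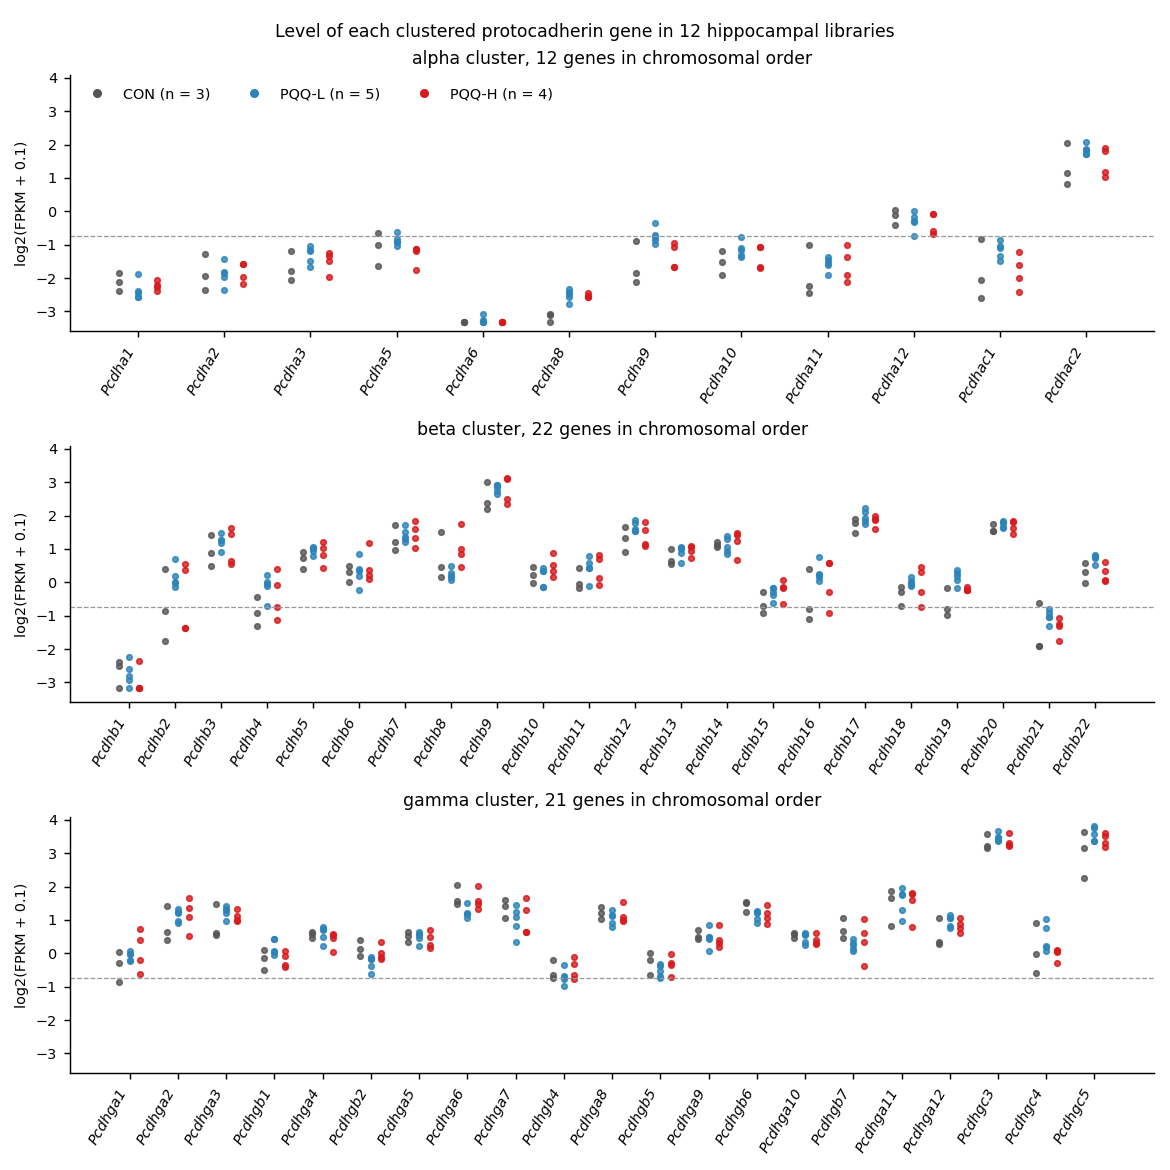
Level of each of the 55 members, as log2(FPKM + 0.1) on the vertical axis, with the genes of each cluster in chromosomal order on the horizontal axis. Each point is 1 library (grey CON, n = 3; blue PQQ-L, n = 5; red PQQ-H, n = 4), and the dashed line marks a FPKM of 0.5. Pcdhgc3 and Pcdhgc5 at the end of the gamma cluster had the highest points, and Pcdha6 had almost no reads.

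In the alpha cluster, a single C-type gene supplied most of the signal. Pcdhac2, which is needed for the tiling of serotonergic axons, averaged 3.04 ± 0.84 FPKM (SD, n = 12) and held 52.8% of the cluster's reads, 48.6% to 56.8% in single libraries. Its values were 1.65, 4.03 and 2.14 FPKM in CON, 3.58, 3.48, 3.17, 4.11 and 3.18 in PQQ-L and 2.19, 1.93, 3.61 and 3.39 in PQQ-H. Pcdhac2 was lowest in CON 1, CON 3, PQQ-H 1 and PQQ-H 2, the libraries rich in striatal markers, and it exceeded Pcdhac1 and Pcdha12 in 12 of 12 libraries.

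The other C-type alpha gene, Pcdhac1, fell below the FPKM limit, with 12 to 84 reads per library. It had 0.0638, 0.458 and 0.141 FPKM in CON, 0.367, 0.297, 0.258, 0.451 and 0.387 in PQQ-L and 0.0859, 0.152, 0.225 and 0.326 in PQQ-H, and again those 4 libraries were the lowest. Among the 10 remaining alpha genes, Pcdha12 led with 0.733 ± 0.150 FPKM (SD, n = 12), followed by Pcdha5 at 0.388 ± 0.108 and Pcdha9 at 0.375 ± 0.161. Pcdha12 measured 0.659, 0.828 and 0.932 FPKM in CON, 0.714, 0.917, 0.494, 0.7899 and 0.697 in PQQ-L and 0.563, 0.523, 0.843 and 0.841 in PQQ-H, so its groups overlapped.

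Pcdha5 and Pcdha9 were both below the FPKM limit. Pcdha5 had 0.2199, 0.539 and 0.394 FPKM in CON, 0.429, 0.551, 0.3897, 0.46002 and 0.425 in PQQ-L and 0.196, 0.356, 0.354 and 0.343 in PQQ-H, with every PQQ-H library below every PQQ-L library, as for 0.707% of the genes below the limit but above 0. Pcdha9 had 0.132, 0.442 and 0.179 FPKM in CON, 0.489, 0.412, 0.507, 0.447 and 0.6802 in PQQ-L and 0.213, 0.214, 0.372 and 0.416 in PQQ-H, and was lowest in the 4 libraries rich in striatal markers. Pcdha6 was the lowest member of all, with 1 read in PQQ-L 2, 4 reads in PQQ-L 5 and 0 in the other 10 libraries. A count of 0 allows up to 3 reads, and all such limits cover counting error only.

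The beta genes were spread over a wide range of levels with no C-type member. Pcdhb9 had the highest level, 6.67 ± 1.42 FPKM (SD, n = 12), and exceeded the next beta gene, Pcdhb17 (3.56 ± 0.51), in 12 of 12 libraries. Pcdhb9 was at 4.45, 8.01 and 5.06 FPKM in CON, 6.597, 7.501, 6.199, 7.38 and 7.11 in PQQ-L and 5.03, 5.53, 8.51 and 8.66 in PQQ-H. The 4 striatal-marker-rich libraries gave its 4 lowest values.

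Pcdhb17 and Pcdhb20 were steadier. Pcdhb17 read 2.68, 3.61 and 3.31 FPKM in CON, 3.699, 3.23, 4.19, 4.54 and 3.45 in PQQ-L and 3.53, 2.93, 3.899 and 3.66 in PQQ-H. For Pcdhb20 the values were 2.797, 3.23 and 2.799 FPKM in CON, 3.06, 2.97, 3.502, 3.404 and 3.35 in PQQ-L and 3.48, 3.003, 2.64 and 3.38 in PQQ-H, and its coefficient of variation (CV, the SD as a percentage of the mean) of 9.43% was the lowest among the members tested. Pcdhb1 was the weakest beta gene, with 1 to 11 reads per library and a mean of 0.0474 ± 0.0384 FPKM (SD, n = 12).

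In the gamma cluster, Pcdhgc3 and Pcdhgc5 together with Pcdhgc4 held 44.0% of the reads, 32.5% to 48.3% in single libraries. Pcdhgc5, whose protein associates with GABA-A receptors at synapses, averaged 10.7 ± 2.5 FPKM and Pcdhgc3, which promotes dendrite branching through Axin1, averaged 10.5 ± 1.3 (SD, n = 12). Their order changed between libraries, with Pcdhgc5 higher in 7 of 12, while each exceeded Pcdhb9 in all 12. Pcdhgc4, the isoform required for the survival of cortical interneurons, was lower at 1.11 ± 0.43 FPKM.

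Pcdhgc5 was at 4.66, 12.5 and 8.78 FPKM in CON, 10.3, 14.1, 10.3, 13.3 and 11.9 in PQQ-L and 9.75, 8.995, 12.04 and 11.4 in PQQ-H, where CON 1 stood lowest. Pcdhgc3 was at 8.73, 11.9 and 9.12 FPKM in CON, 10.95, 10.4, 12.5, 10.1 and 11.2 in PQQ-L and 9.25, 12.1, 9.43 and 9.74 in PQQ-H. Pcdhgc4 was at 0.566, 1.78 and 0.8797 FPKM in CON, 1.599, 0.954, 1.94, 1.06 and 1.04 in PQQ-L and 0.713, 0.940003, 0.972 and 0.926 in PQQ-H. The groups overlapped for all 3 genes.

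The gamma A genes (12) and gamma B genes (6) were all tested, and their mean levels lay between 0.581 and 2.84 FPKM. The highest were Pcdhga11 (2.84 ± 0.76), Pcdhga6 (2.73 ± 0.66) and Pcdhgb6 (2.24 ± 0.35), and the lowest was Pcdhgb4 (0.581 ± 0.130, SD, n = 12). Pcdhga11 read 1.66, 3.53 and 3.03 FPKM in CON, 2.37, 3.25, 3.34, 3.76 and 1.87 in PQQ-L and 1.62, 2.91, 3.32 and 3.39 in PQQ-H. Pcdhgb4 read 0.768, 0.536 and 0.50004 FPKM in CON, 0.489, 0.529, 0.684, 0.507 and 0.403 in PQQ-L and 0.824, 0.702, 0.542 and 0.4897 in PQQ-H. Neither separated the groups.

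Over the 12 libraries, the 43 members tested varied with a median CV of 22.1%, against 16.3% over all 13796 genes tested. The CV from counting alone had a median of 6.85%, and for 39 of the 43 members the CV between libraries was more than 2 times their counting CV. Single members ranged from 9.43% to 53.3%.

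**Figure D2:**
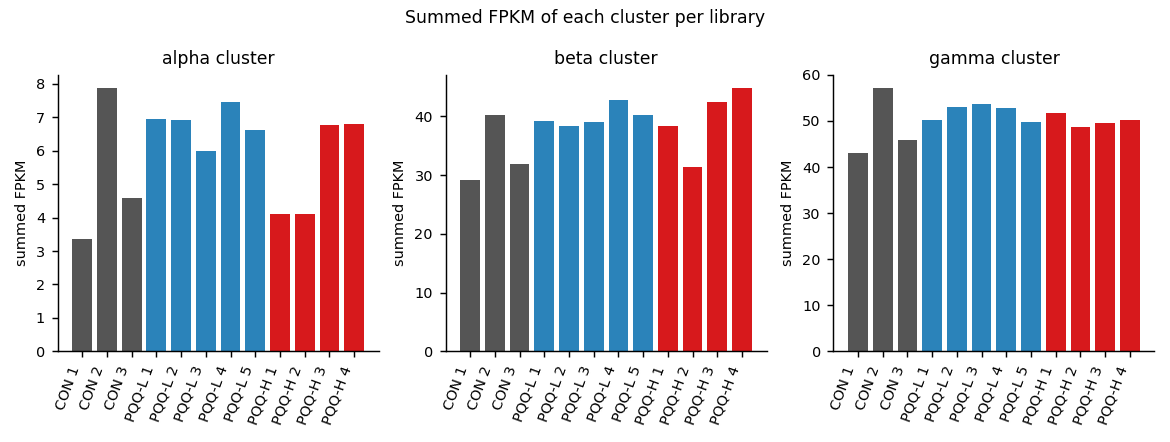
Summed FPKM of the alpha, beta and gamma genes in each of the 12 libraries (grey CON, blue PQQ-L, red PQQ-H), with library on the horizontal axis and each vertical axis starting at 0. CON 1, CON 3, PQQ-H 1 and PQQ-H 2 had the 4 lowest alpha sums, 3.37 to 4.58 against 6.01 to 7.89 in the other 8 libraries.

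The alpha cluster had its lowest sums in the libraries rich in striatal markers. Its summed FPKM was 3.37, 7.89 and 4.58 in CON, 6.96, 6.92, 6.01, 7.47 and 6.62 in PQQ-L and 4.11, 4.11, 6.78 and 6.80 in PQQ-H. CON 1, CON 3, PQQ-H 1 and PQQ-H 2 were below all others. No PQQ-L library was among them, so marker profile and treatment cannot be told apart in PQQ-L vs. CON. By group the alpha sum was 5.28 ± 2.34 in CON, 6.80 ± 0.54 in PQQ-L and 5.45 ± 1.55 in PQQ-H (SD, n = 3, 5 and 4), so the difference between group means was within the SD of CON.

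The beta sum was 29.1, 40.3 and 31.9 FPKM in CON, 39.2, 38.3, 39.0, 42.8 and 40.3 in PQQ-L and 38.3, 31.3, 42.4 and 44.9 in PQQ-H. The gamma sum was 43.03, 57.2 and 46.0 in CON, 50.1, 53.1, 53.7, 52.8 and 49.9 in PQQ-L and 51.8, 48.7, 49.5 and 50.3 in PQQ-H. CON 2 had the highest gamma sum and the remaining CON libraries the 2 lowest, so the CON group spanned the range of both treated groups.

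Member by member, CON 1, CON 3, PQQ-H 1 and PQQ-H 2 were the 4 lowest libraries for 10 of the 43 members tested, against 14.3% of all genes tested, and the 4 highest for 2 members, against 10.7% of all genes. The 10 members comprised Pcdhac2, 7 beta genes and the gamma genes Pcdhga12 and Pcdhgc5, and the 2 were Pcdhga6 and Pcdhgb7. All 4 libraries were below the member's median over 12 libraries for 11 of 20 beta and 7 of 21 gamma genes. They were all above it for 1 beta and 4 gamma genes. The share over all genes was not computed for this count. These values are a description of libraries ordered by other genes and were given no test.

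**Figure D3:**
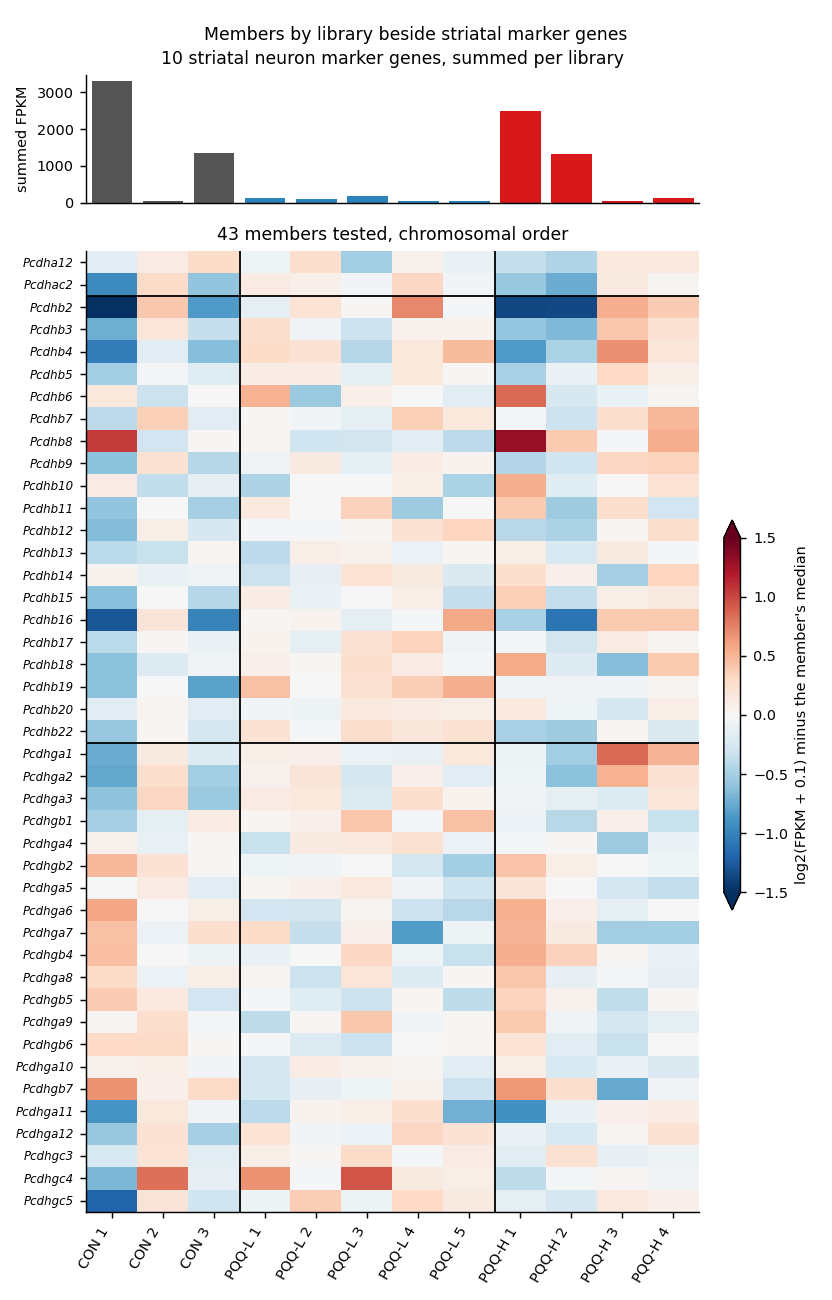
Heatmap of the 43 members tested (rows, in chromosomal order) in the 12 libraries (columns), coloured by log2(FPKM + 0.1) minus the member's median over the libraries, with the colour scale ending at ±1.5. The bars above give the summed FPKM of 10 striatal marker genes in each library (grey CON, blue PQQ-L, red PQQ-H). Of the libraries with tall bars (1325 to 3323), CON 1, CON 3 and PQQ-H 2 were blue for most beta genes. They were below the median for 16, 18 and 18 of 20 beta genes, and PQQ-H 1 for 11. CON 1 and PQQ-H 1 were red for the middle of the gamma cluster.

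In the gamma cluster, a run of genes in the middle of the cluster differed from the genes on both sides of it. The 12 neighbouring genes from Pcdhga4 to Pcdhgb7, a stretch chosen after the values were seen, were above their median in 12 of 12 cases in CON 1 and 11 of 12 in PQQ-H 1. The 9 gamma genes outside it, 4 before it and 5 after it with the C-type genes among them, were below their median in 9 of 9 cases in both libraries. Inside the stretch, the other marker-rich libraries, CON 3 and PQQ-H 2, were above the median for 7 of 12 genes. CON 2 and PQQ-L 3, which were not marker-rich, were above it for 8 of 12. Summed over the stretch, the FPKM was 22.7, 18.6 and 18.4 in CON, 16.6, 16.1, 18.5, 16.0 and 15.6 in PQQ-L and 23.2, 17.9, 14.5 and 15.9 in PQQ-H. Over the 9 genes outside, it was 20.4, 38.6 and 27.6 in CON, 33.6, 37.1, 35.3, 36.9 and 34.3 in PQQ-L and 28.6, 30.8, 34.97 and 34.3 in PQQ-H. The libraries richest in striatal markers, CON 1 and PQQ-H 1, had the highest sums inside the stretch, and all 4 marker-rich libraries had the lowest sums outside it.

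The comparison of PQQ-L with CON asked whether low-dose PQQ changed these genes in aged hippocampus. No member out of 43 was called, which required a |log2FC| over 1 together with a Benjamini-Hochberg adjusted p under 0.05 in limma, while 65 genes (0.471%) of all 13796 tested were, all of them lower in PQQ-L. At an unadjusted p below 0.05, 3 members were higher (Pcdhb19, Pcdhb22 and Pcdhgc5) and 2 lower (Pcdhga6 and Pcdhgb2), against 8.92% of all genes higher and 11.6% lower. Both counts were at or below the background share, and with limma-voom on the recovered reads 9 of 53 members had an unadjusted p below 0.05, against 20.3% of all genes in that fit, and 0 were called. The median log2FC of the members was 0.17, compared with -0.03 over all genes. Of the members, 28 of 43 were above 0, against 46.1% of all genes. By cluster the median was 0.29 for the 20 beta genes, with 17 above 0, and -0.01 for the 21 gamma genes, with 10 above 0.

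Pcdhb19 had the smallest p of the members in this comparison. It measured 0.478, 0.794 and 0.4103 FPKM in CON, 1.103, 0.782, 0.944, 1.04 and 1.195 in PQQ-L and 0.762, 0.753, 0.7602 and 0.816 in PQQ-H. CON 2 lay inside the PQQ-L range and the remaining CON libraries below it. The log2FC was 0.78 ± 0.20 (SE), with an adjusted p of 0.122 in limma and a two-sided exact permutation p of 0.0357, where 5 against 3 libraries cannot give less than 0.0179.

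Pcdhb22 and Pcdhgc5 were the other members with higher values in PQQ-L. Pcdhb22 was at 0.891, 1.41 and 1.13 FPKM in CON, 1.605, 1.34, 1.67, 1.56 and 1.62 in PQQ-L and 0.951, 0.921, 1.42 and 1.16 in PQQ-H, with a log2FC of 0.43 ± 0.17 (adjusted p = 0.234 in limma, exact permutation p = 0.0357). Pcdhgc5, with the values given above, had a log2FC of 0.56 ± 0.25 (adjusted p = 0.240 in limma, exact permutation p = 0.107). CON 2 overlapped the PQQ-L libraries for both genes.

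Lower values in PQQ-L were seen for members of the gamma stretch. Pcdhga6 was at 4.07, 2.68 and 2.86 FPKM in CON, 2.19, 2.19, 2.77, 2.15 and 1.99 in PQQ-L and 3.94, 2.84, 2.41 and 2.68 in PQQ-H, a log2FC of -0.47 ± 0.18 in PQQ-L vs. CON (adjusted p = 0.229 in limma, exact permutation p = 0.0357). Pcdhgb2 was at 1.21, 0.983 and 0.845 FPKM in CON, 0.793, 0.798, 0.833, 0.675 and 0.557 in PQQ-L and 1.16, 0.9002, 0.834 and 0.7897 in PQQ-H, a log2FC of -0.42 ± 0.18 (adjusted p = 0.237 in limma, exact permutation p = 0.0179). Every PQQ-L library was below every CON library for Pcdhgb2, and the same held for Pcdhgb7, against 7.66% of all genes. In the opposite direction only Pcdhb18 among the members tested had no overlap, against 2.96% of all genes.

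**Figure D4:**
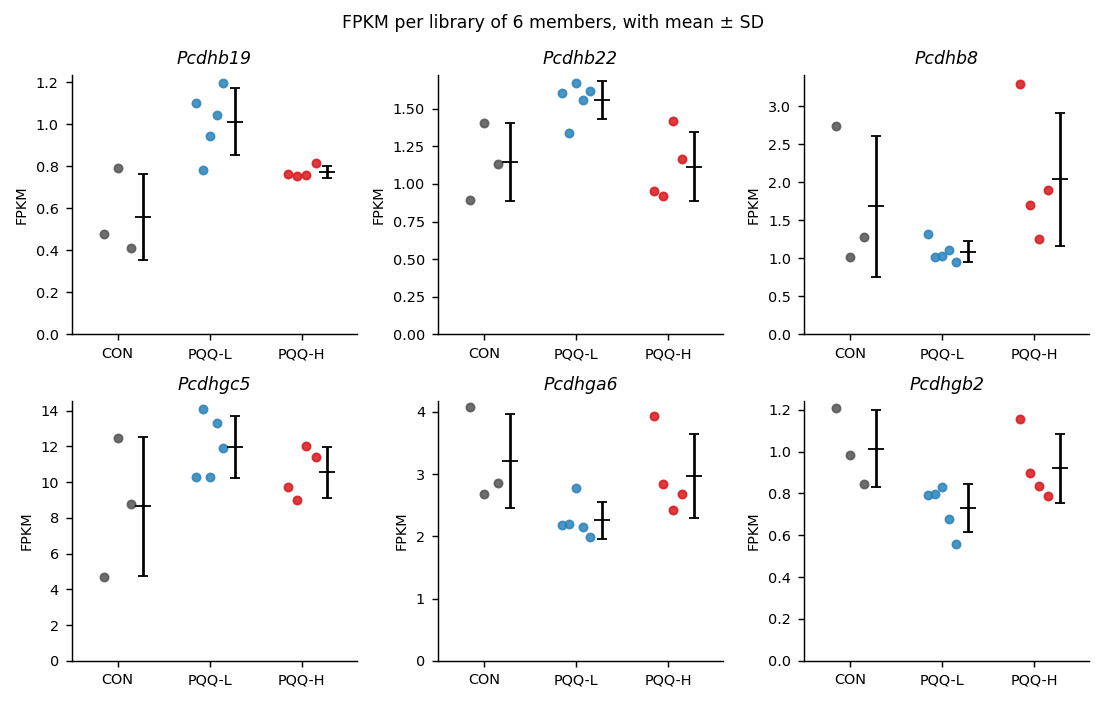
FPKM per library of 6 members with small p in the comparisons, by group (CON, n = 3; PQQ-L, n = 5; PQQ-H, n = 4), with the mean and SD drawn beside the points and each vertical axis starting at 0. The groups overlapped in most panels, and Pcdhgb2 was lower in all PQQ-L (0.557 to 0.833) than in all CON libraries (0.845 to 1.21).

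The 9 gamma genes outside the stretch all had a log2FC above 0 in PQQ-L vs. CON (0.11 to 0.56), whereas 11 of the 12 inside it were below 0, the exception being Pcdhga4 at 0.03. In PQQ-H vs. CON, 7 of 9 outside were above 0 and 11 of 12 inside below 0. Both comparisons used the same CON libraries. Of all genes tested, 46.1% were above 0 at the low dose and 44.4% at the high dose. The limits of the stretch were set with the values known. In CON 1, all 12 genes inside were above their median and all 9 outside below it. Opposite signs against CON follow in part from that choice, and the part of treatment in them was not tested. The gamma genes also share exons, so their signs may not be independent, which was not tested. Of the 3 CON libraries, 2 were rich in striatal markers, and none of the PQQ-L libraries were.

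These values moved with the controls that entered the fit. In CON 2, the marker sums for choroid plexus (1774 FPKM), thalamic neurons (79.5) and meninges (55.7) were above those of every treated library. Without CON 1, CON 3, PQQ-H 1 and PQQ-H 2, CON was 1 library (CON 2), assumed to vary like the other groups, and the median log2FC of the members in PQQ-L vs. CON was -0.10. In that fit 0 members had an unadjusted p below 0.05 in limma, against 4.29% of all genes. Without CON 2, the only control low in striatal markers, the median was 0.34, and Pcdhb19 (log2FC 1.02, adjusted p = 0.0166 in limma) and Pcdhb16 (log2FC 1.24, adjusted p = 0.0430 in limma) passed both thresholds, 2 of 43 members against 6.28% of all genes in that fit. A further 5 members then had an adjusted p below 0.05 with a smaller change, namely Pcdhac2, Pcdhb22, Pcdhga3, Pcdhga12 and Pcdhgc5, all higher in PQQ-L, so that 7 of 43 members had an adjusted p below 0.05 against 23.4% of all genes.

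For PQQ-H vs. CON, none of the members were called, against 113 of all genes (0.819%), all lower in PQQ-H. None of the members reached an unadjusted p below 0.05 in limma either (2 of 53 in limma-voom on the recovered reads, against 10.6% of all genes), whereas 1.85% of all genes did so as higher and 7.88% as lower. No member tested separated the libraries of the groups, against 1.36% of all genes higher and 5.72% lower. The median log2FC was 0.13 (all genes -0.03). Above 0 were 19 of 20 beta genes and 8 of 21 gamma genes, against 44.4% of all genes.

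The smallest p belonged to Pcdhb19, with a log2FC of 0.44 ± 0.21 (adjusted p = 0.517 in limma, exact permutation p = 0.114, the lowest possible being 0.0286). Pcdhb15 was at 0.433, 0.724 and 0.513 FPKM in CON, 0.786, 0.665, 0.7195, 0.783 and 0.545 in PQQ-L and 0.956, 0.541, 0.782 and 0.806 in PQQ-H, a log2FC of 0.41 ± 0.22 in PQQ-H vs. CON. Pcdhga1 was at 0.455, 0.924 and 0.717 FPKM in CON, 0.892, 0.885, 0.777, 0.761 and 0.9399 in PQQ-L and 0.779, 0.551, 1.57 and 1.23 in PQQ-H, a log2FC of 0.46 ± 0.31. PQQ-H 3 and PQQ-H 4 were the highest of all libraries for Pcdhga1, while PQQ-H 1 and PQQ-H 2 lay within CON.

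Pcdhgb6 had the only negative log2FC among the 5 members with the smallest p, -0.28 ± 0.15. It was at 2.79, 2.76 and 2.26 FPKM in CON, 2.22, 1.94, 1.78, 2.26 and 2.29 in PQQ-L and 2.605, 1.98, 1.76 and 2.23 in PQQ-H. Pcdhgc5 had a log2FC of 0.38 ± 0.26, and these 4 members had adjusted p of 0.595 to 0.709 in limma. Without the 4 libraries rich in striatal markers, which left 2 PQQ-H libraries against CON 2 alone, the median of the members was -0.01, and the log2FC of Pcdhb19 was -0.01 and that of Pcdhgc5 -0.09.

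The doses were compared directly as PQQ-H vs. PQQ-L. None of the members and none of all 13796 genes were called (0%), and 490 genes higher (3.55%) and 635 lower (4.6%) had an unadjusted p below 0.05 in limma, as did 2 members higher (Pcdhb8 and Pcdhga6) and 1 lower (Pcdhb22). No member tested had separate libraries, against 1.42% of all genes higher and 3.33% lower, while Pcdha5, below the limit, had. The median log2FC was -0.06 (all genes -0.02).

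Pcdhb8 was at 2.74, 1.02 and 1.29 FPKM in CON, 1.32, 1.02, 1.04, 1.12 and 0.952 in PQQ-L and 3.29, 1.702, 1.26 and 1.8997 in PQQ-H. CON 1 and PQQ-H 1, the libraries with the most striatal marker signal, were the 2 highest. Its log2FC in PQQ-H vs. PQQ-L was 0.77 ± 0.29 (adjusted p = 0.580 in limma, exact permutation p = 0.0159) and 0.48 without the 4 striatal-marker-rich libraries.

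Pcdhb22 was lower at the higher dose, with a log2FC of -0.46 ± 0.16 (adjusted p = 0.580 in limma, exact permutation p = 0.0159), and Pcdhga6 had 0.37 ± 0.16 (adjusted p = 0.580 in limma, exact permutation p = 0.0317). Pcdhgb1 was at 0.607, 0.799 and 0.975 FPKM in CON, 0.9198, 0.951, 1.23, 0.874 and 1.25 in PQQ-L and 0.838, 0.646, 0.952 and 0.693 in PQQ-H, and had -0.38 ± 0.18. Pcdhb19 had -0.34 ± 0.18, and the PQQ-H values of 0.753 to 0.816 FPKM lay at the lower edge of the PQQ-L range.

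**Figure D5:**
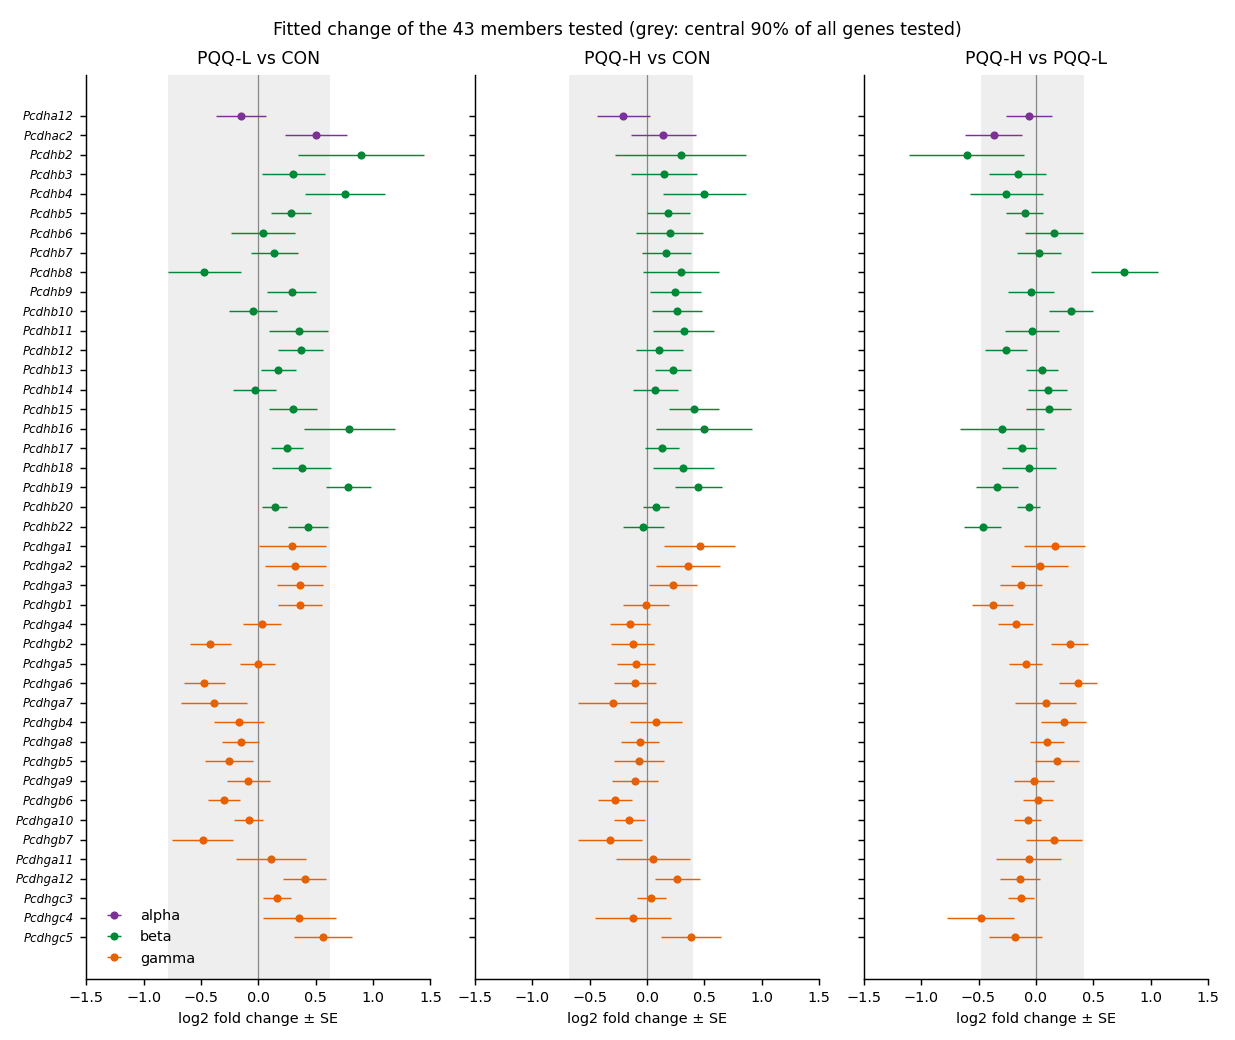
Fitted log2 fold change with its SE (horizontal axis) of the 43 members tested, in chromosomal order from top to bottom, in the 3 comparisons, coloured by cluster. The grey band holds the central 90% of all genes tested. No member passed the thresholds, the beta genes lay mostly right of 0 against CON, and the middle gamma genes lay mostly left of it.

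Among the members below the FPKM limit, Pcdha8 alone separated CON from both treated groups. Its reads were 0, 3 and 3 in CON, 15, 20, 13, 16 and 8 in PQQ-L and 13, 14, 13 and 13 in PQQ-H. All CON libraries were at or under 3 reads and all treated libraries at 8 or more, and 30 of the 13863 genes below the limit but above 0 (0.216%) were likewise higher in both treated groups with no overlap. The choroid plexus marker sums divide the libraries in the same way (1774 FPKM or more in CON, 196.8 or less in treated libraries), and their part in this result was not tested. Relative to the library totals, the ratio of summed reads was 6.60 in PQQ-L vs. CON (95% exact interval 2.89 to 18.6) and 6.36 in PQQ-H vs. CON (2.74 to 18.1), intervals that cover counting error only.

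This gene was not in the test, and it was singled out after its values were seen. With all genes above 0 tested by limma, its adjusted p was 0.0307 at the low dose and 0.0366 at the high dose, each against CON, at a log2FC of 0.65 and 0.64 on the log2(FPKM + 0.1) scale, under the threshold of 1, and 0.557% and 0.806% of all genes in these fits had an adjusted p below 0.05. With limma-voom on the recovered reads, the log2FC was 2.85 in both comparisons and the adjusted p 0.0644 and 0.0637. The exact permutation p was 0.0179 and 0.0286, the smallest possible values. These p-values largely follow from the lack of overlap by which the gene was singled out. With 131 reads over 12 libraries in a family of near-identical genes, the assignment is uncertain.

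The non-clustered protocadherins are single genes outside these clusters, and 10 of 12 were tested. None were called, but 4 were higher in PQQ-L vs. CON at an unadjusted p below 0.05 in limma (8.92% of all genes) and 1 at the higher dose (1.85%), and none were lower. Pcdh17, a regulator of presynaptic assembly, had 4.44, 7.55 and 4.15 FPKM in CON, 7.58, 6.98, 8.03, 5.98 and 7.56 in PQQ-L and 7.47, 6.33, 6.97 and 6.86 in PQQ-H. Its log2FC was 0.46 ± 0.17 (adjusted p = 0.225 in limma) in PQQ-L vs. CON and 0.40 ± 0.18 (adjusted p = 0.494) in PQQ-H vs. CON.

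Pcdh1 had 8.25, 27.0 and 14.2 FPKM in CON, 24.4, 28.3, 22.7, 30.6 and 28.6 in PQQ-L and 13.6, 15.5, 34.5 and 24.0 in PQQ-H, a log2FC of 0.86 ± 0.36 in PQQ-L vs. CON. The 4 libraries rich in striatal markers were the lowest for Pcdh1 and for 4 more of the 12 genes of this list, against 14.3% of all genes tested. For comparison, the clustered members had medians of 0.17 and 0.13 in the comparisons with CON, and the non-clustered genes had 0.45 and 0.23.

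Regulators of promoter choice (19 of 20 tested), such as CTCF, cohesin and silencing factors, had a median log2FC of 0.12 against CON at the low dose and 0.03 at the high dose. At an unadjusted p below 0.05 in limma, 2 were higher in PQQ-L, the cohesin subunit Stag1 (0.29 ± 0.12) and Smchd1 (0.26 ± 0.12), a chromatin protein that silences clustered protocadherins, and 0 in PQQ-H, where Rest, a repressor of neuronal genes, had -0.28 ± 0.18. Genes that act inside the cell with these proteins (20 of 20 tested) had medians of 0.25 and 0.16, with 6 higher in PQQ-L and 1 in PQQ-H, where 8.92% and 1.85% of all genes were. The 4 libraries rich in striatal markers were the lowest for 7 of these 20 genes and for 5 of the 20 regulators, against 14.3% of all genes tested. Abi2, a subunit of the WAVE complex that steers actin, had a log2FC of 0.37 ± 0.11 and 0.29 ± 0.12 (adjusted p = 0.183 and 0.429 in limma), the synaptic adhesion gene Nlgn1 0.51 ± 0.19 in PQQ-L, and Ptk2b, a kinase that clustered protocadherins inhibit, 0.76 ± 0.38 in PQQ-H. None of these genes were called.

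The genes that flank the clusters on the chromosome (14 of 16 tested) had median log2FC of -0.03 and 0.00 and none were called. In PQQ-L vs. CON, Ik, a splicing factor, had -0.13 ± 0.06 and Ndufa2, a subunit of respiratory complex I, -0.32 ± 0.16, and in PQQ-H vs. CON Zmat2 had 0.19 ± 0.09 and Tmco6 0.34 ± 0.17. The 4 libraries rich in striatal markers were the lowest for 0 and the highest for 2 of the 16 flanking genes, against 14.3% and 10.7% of all genes tested.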

How the data were processed

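Total RNA of hippocampus had been isolated by the authors with TRIzol, sequenced on an Illumina NovaSeq, filtered with fastp, mapped with HISAT2 (mm39 per the submitters' processing notes) and counted per gene with HTSeq-count. The deposited FPKM had been computed by the authors from these counts. The annotation, strandedness, counting mode and program versions are not given in the sources used here. The authors tested counts with DESeq2, and this was not repeated.

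Whole reads were recovered from the FPKM for 25563 of 25563 genes with values above 0 in at least 2 libraries (100%, tolerance 0.02 reads), which was tested on simulated data (99.93% of 2993 genes exact). Libraries of a group were distinct (in 19 pairs the chi-square of the counts was at least 18.8 per degree of freedom). All 12 columns had a sample. The 55 members were those with symbols Pcdha, Pcdhac, Pcdhb, Pcdhga, Pcdhgb or Pcdhgc and a number, and 53 were matched to GENCODE M21 by symbol. Limma 3.58.1 (R 4.3.3, moderated test with trend, 1 fit of 12 libraries) was applied to log2(FPKM + 0.1) of the 13796 genes with a mean of at least 0.5 FPKM, which understates changes of low genes, with Benjamini-Hochberg adjustment. In simulated data for PQQ-L vs. CON with 200 altered genes (a log2 change of 3), 198 of them and 4 others were called. For named members, a two-sided exact permutation test was added on mean log2(FPKM + 0.1). Tables and plots used Python 3.11.15, pandas 2.3.3, scipy 1.17.1 and matplotlib 3.10.9. Members named were the C-type genes, the 3 highest and the lowest of the alpha, beta and gamma A or B genes, every called member and the 5 with the smallest p per comparison, and of each further list the 2 genes with the smallest p against CON. The members and lists were chosen with earlier results of these data known. P-values measure only the spread between these libraries.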

Additional observations from a re-analysis of the deposited data

Results flagged for a closer look

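In 5 of 55 groups of values examined, 1 library lay far from the rest of its group, by a criterion (Dixon's 95% critical value) that flags about 1 in 20 groups by chance. Pcdha5 was at 0.196 FPKM in PQQ-H 1, against 0.343 to 0.356 in the other PQQ-H libraries. Pcdhb1 was at 0.0946 FPKM in PQQ-H 2, against 0.0109 to 0.0112 in the others, which were at 1 read each. Pcdhb19 was at 0.816 FPKM in PQQ-H 4, against 0.753 to 0.762, a narrow range for this gene. Pcdha6 was at 0.0177 FPKM in PQQ-L 5, against 0 to 0.00396, where 1 read separates the lower values. Pcdhga6 was at 2.77 FPKM in PQQ-L 3, against 1.99 to 2.19, and PQQ-L 3 had the highest striatal marker sum (178.7 FPKM) and the lowest hippocampal marker sum (134.1 FPKM) of the PQQ-L group. The part of these marker differences in the values was not tested.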

How the results depend on the processing

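Besides leaving out each of the 12 libraries in turn, 12 other settings fixed at the outset were run (pseudocounts of 1 and 0.01, every gene above 0, a lower FPKM limit of 0.1, scaling by median of ratios, quantile normalization, limma-voom on recovered reads, the 2 groups alone, no trend, array quality weights whose estimate stopped before it converged, a covariate for the initial of each library name and the replicate block), and 2 more were chosen after seeing the data. No member of the 3 comparisons was called under any of them except without CON 2, where 2 were called in PQQ-L vs. CON, against 6.28% of all genes (0 to 2 over the libraries left out).

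The number of members at an unadjusted p below 0.05 moved most. In PQQ-L vs. CON it was 5 and became 8 with quantile normalization, where 1886 of all 13796 genes were higher and 1214 lower. It was 9 with limma-voom, against 20.3% of all genes. Without trend it was 8 (1169 genes higher, 1531 lower), and with array quality weights 3 (867 and 805). With the striatal marker score as covariate it was 1, against 7.27% of all genes. For PQQ-H vs. CON it was 0 and became 1 with a pseudocount of 0.01 (261 genes higher, 1082 lower) or every gene above 0 (9% of all genes). It was also 1 with the limit of 0.1 (313 and 1445), scaling by median of ratios (485 and 838) or no trend (266 and 1085). With quantile normalization (616 and 758) and with limma-voom (10.6% of all genes) it was 2. For the 2 doses it was 3 and became 5 with limma-voom, against 7.91% of all genes. It was also 5 with the 2 groups alone (688 genes higher, 1210 lower) and with array quality weights (882 and 1057). Leaving out 1 library gave 1 to 16 members in PQQ-L vs. CON (16 when CON 2 was left out, against 43.2% of all genes, 1 when CON 1 was, and 2 and 3 when PQQ-L 5 and PQQ-L 4 were), 0 to 8 in PQQ-H vs. CON (3 without PQQ-H 2, 8 without CON 2 against 20.1% of all genes, otherwise 0 or 1) and 1 to 5 between doses (1 without PQQ-H 1, 5 without PQQ-H 3).

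The median log2FC of members in PQQ-L vs. CON was 0.17, ranged from 0.085 (without CON 1) to 0.34 (without CON 2) when 1 library was left out, and was 0.07 with the striatal score as covariate and -0.10 without the 4 striatal-marker-rich libraries. Without these, Pcdhgc5 turned to -0.069 at the low dose and -0.087 at the high dose against CON, and Pcdhb19 to -0.011 at the high dose. The median between doses was -0.06, and was 0.01 without PQQ-H 2 and 0.02 with the striatal score. The cause was not tested. Replicate numbers did not pair the samples (correlations of same-numbered libraries -0.619 to 0.717), and the replicate block gave 2, 1 and 2 members at an unadjusted p below 0.05 at the low dose, at the high dose and between doses. Depth limits the lowest of the 12 members under the FPKM limit of 0.5, such as Pcdha6 and Pcdhb1 with at most 4 and 11 reads per library. Gene length also enters this limit. Pcdha5 and Pcdha9 missed it with means of 72 and 69.4 reads at lengths of 5376 and 5341 bases. Pcdhb15 passed it with a mean of 66.6 reads at 2795 bases.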
